A study of Mus musculus with 6 samples.

Results

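The sirtuins are a family of enzymes that remove acyl groups from lysines, and for each group they remove they split 1 molecule of NAD into nicotinamide and an acetylated or acylated ADP-ribose. Their activity therefore depends on the supply of NAD. Cells rebuild NAD from nicotinamide in a salvage route whose rate-limiting enzyme is Nampt, and the ectoenzyme Cd38 is a major NAD glycohydrolase, that is, an enzyme that breaks NAD down. In mice, falling NAD and rising Cd38 have been described in several ageing tissues, and Sirt1 and Nampt have been studied in the intestinal crypt as links between diet and stem cells. The 9 genes described here are Sirt1 to Sirt7, Nampt and Cd38, chosen by their symbols among the 46078 genes of the count table, and all 9 were found and passed the filter on low counts.

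RNA came from epithelial cells of the proximal small intestine of 3 aged mice (20 to 22 months) and 3 young mice (2 to 3 months). All were untreated C57BL/6JRj animals, with no genetic change named, and each library was taken as 1 mouse. Cells were released with EDTA and trypsin and sorted as positive for EpCam and negative for CD45, the leukocyte surface protein encoded by Ptprc. The labels give neither sex, batch nor time of collection, and the sort does not separate crypt from villus cells or one epithelial lineage from another. In such bulk RNA, fewer cells of a type and less RNA per cell cannot be told apart, and no protein, enzyme activity or NAD was measured.

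The libraries held 41479573 to 58989166 counts. Levels are given in CPM, the gene's counts relative to a library total scaled by TMM factors. Epcam, whose protein was used for the sort, was at 1510 ± 11.3 CPM in aged and 1656 ± 18.3 CPM in young libraries (SD, n = 3 each). Every aged library lay below every young one in Epcam (edgeR adjusted p = 0.653). The 7 listed epithelial markers, Epcam included, summed to 7415 to 8086 CPM in aged and 7761 to 8259 CPM in young libraries. Of these 7, 0 passed between ages (edgeR). Ptprc had 10 to 13 counts in aged and 7 to 17 counts in young libraries. Summed T cell markers lay at 1.73 to 3.00 CPM in aged and 2.46 to 2.91 CPM in young libraries, and summed myeloid markers at 12.7 to 19.9 CPM in aged and 12.6 to 20.1 CPM in young libraries with Cd68 as the main part of that sum. The B and plasma cell sum was 2.85 to 3.95 CPM in aged and 2.43 to 2.81 CPM in young libraries, most of it Cd79b, and the fibroblast and endothelial sum was 1.23 to 1.58 CPM in aged and 0.862 to 1.68 CPM in young libraries. Of these 35 markers of other cell types 10 were tested and 0 passed between ages (edgeR, 0 also at an unadjusted p under 0.05). S100a8, S100a9, Cdh5 and Kdr had 0 counts in all 6 libraries.

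The 9 genes gave no call between ages, and few of all genes tested did. Of the 9 genes, 0 passed the test between ages (adjusted p under 0.05 by the quasi-likelihood test of edgeR, with Benjamini-Hochberg adjustment over the 14923 genes tested). Of all genes tested 1.41% passed, 0.623% higher and 0.784% lower in aged libraries. DESeq2 called 0 of 9, against 2.84% of the genes it tested, and limma-voom called 0 of 9, against 1.15%. At an unadjusted p under 0.05 there was 1 gene of 9 with each of the 3 tools (Nampt with edgeR), or 11.1%, against 9.23% of all genes tested. The aged and young libraries overlapped in all 9 genes. Of all genes tested 13.8% had groups that did not overlap, 6.3% higher and 7.49% lower in aged libraries. Whether 0 of 9 differs from that share was not tested. The median size of the log2 fold change was 0.08 for the 9 genes and 0.10 for all genes tested. For all 9 genes the 95% interval of the fold lay within a 1.5-fold change in either direction, and for 8 of them within 1.4-fold, with Sirt5 as the exception. These intervals are for single genes and are not adjusted for the number of genes. Over all genes tested, the median ratio of the upper to the lower limit of the fold was 1.46.

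**Figure D1:**
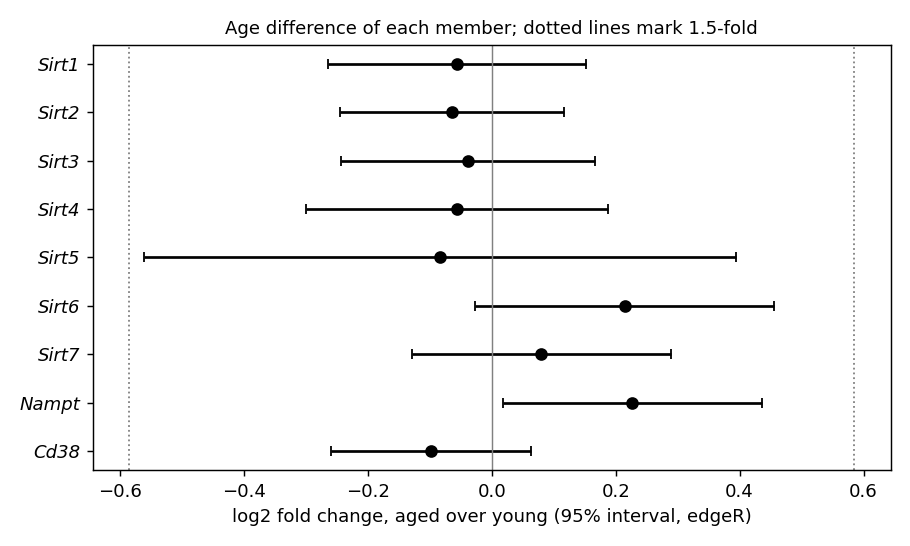
Log2 fold change of aged over young (x axis) with its 95% interval from the edgeR fit for each of the 9 genes (y axis), with dotted lines at 1.5-fold. All 9 intervals lie inside the dotted lines, and only that of Nampt leaves out 0.

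The genes lie on 6 chromosomes (GENCODE M21 on GRCm38). Their start regions were compared in RefSeq windows of 250 bases before to 50 bases after the RefSeq start (GRCm38.p6), which covered all 9 genes with 11 windows. RefSeq and GENCODE starts can differ. The windows of Sirt1, Sirt4, Nampt and Cd38 lie inside the GENCODE spans of these genes, which start further upstream. So do the second windows of Sirt3 and Sirt6. Cd38 stood apart in CpG content, though not in its share of G and C (51.7%, against a median of 52.7% over all windows). Its window held 1 CpG, an observed over expected ratio of 0.05, while the 10 windows of the other 8 genes had ratios from 0.52 to 1.09, and the median over all 32851 windows was 0.38. A set of 6 short motifs was searched on both strands. The E-box CACGTG, the site bound by the clock factors CLOCK and BMAL1 among others, occurred at 2 places in the Sirt1 window, which alone of the 11 held it, and in 7.15% of all windows. GCGCNTGCG, most of the site of the mitochondrial gene regulator NRF1, occurred in windows of Nampt, Sirt6 and Sirt7, and in 6.31% of all windows. The Sirt6 window held it on each strand in 2 matches that overlap, and no other matches overlapped. CCAAT occurred in windows of Sirt2, Sirt3 and Sirt5, and in 37.4% of all windows. TTCNNNGAA, the core of interferon-gamma sites, had 1 match, in the Sirt7 window, and was found in 8.3% of all windows. The interferon-type GAAANNGAA (8.56% of all windows) and TATAAA (13.6%) had 0 matches in the 11 windows. These are matches of letters, not measured binding. The 3 genes chosen for display are Nampt, with the lowest p, Sirt1, with its pair of E-boxes, and Sirt5, the most variable member. Their parts before the RefSeq start that no GENCODE exon covers are shown. They are written 5′ to 3′ on the gene's strand, and capitals mark GCGCNTGCG or its reverse complement in Nampt, CACGTG in Sirt1 and CCAAT in Sirt5.
Nampt, chr12:32820085-32820334, plus strand: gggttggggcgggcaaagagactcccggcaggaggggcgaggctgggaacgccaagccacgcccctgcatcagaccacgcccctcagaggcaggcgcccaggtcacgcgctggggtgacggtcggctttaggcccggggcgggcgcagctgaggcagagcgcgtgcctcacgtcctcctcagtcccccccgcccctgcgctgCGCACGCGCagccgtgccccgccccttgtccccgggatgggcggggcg
Sirt1, chr10:63339051-63339285, minus strand: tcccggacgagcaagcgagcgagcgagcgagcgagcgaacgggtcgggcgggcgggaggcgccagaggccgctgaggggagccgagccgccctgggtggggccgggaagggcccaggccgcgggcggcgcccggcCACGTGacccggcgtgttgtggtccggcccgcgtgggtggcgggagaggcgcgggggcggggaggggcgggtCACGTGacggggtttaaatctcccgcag
Sirt5, chr13:43365285-43365495, plus strand: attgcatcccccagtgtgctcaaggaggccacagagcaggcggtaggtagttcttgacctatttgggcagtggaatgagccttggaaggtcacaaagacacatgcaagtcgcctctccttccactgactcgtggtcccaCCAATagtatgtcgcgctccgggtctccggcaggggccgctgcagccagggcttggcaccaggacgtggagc

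Nampt (ENSMUSG00000020572, chromosome 12, 32819545 to 32853349), which makes nicotinamide mononucleotide from nicotinamide, came closest to the threshold. Its level was 56.3, 68.3 and 63.6 CPM in aged libraries, against 52.1, 58.0 and 50.7 CPM in young libraries. The 2 highest values were aged and the 2 lowest young, but aged replicate 1 lay below young replicate 2, so the groups overlapped. The log2 fold change was 0.23 ± 0.09 (SE), a 1.17-fold difference with a 95% interval of 1.01 to 1.35, and it did not pass the test (edgeR unadjusted p = 0.0367, adjusted p = 0.469). By unadjusted p it ranked 1166 of the 14923 genes.

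Cd38 (ENSMUSG00000029084, chromosome 5, 43868553 to 43912375) was the highest of the 9 genes, at 90.3, 91.8 and 92.1 CPM in aged libraries, against 102, 90.7 and 100.4 CPM in young libraries. The aged values were nearly identical, and young replicate 2 fell among them. The log2 fold change was -0.10 ± 0.07 (SE, adjusted p = 0.811), and the 95% interval of the fold, 0.836 to 1.05, leaves out a rise of more than 1.05-fold. Cd38 is also a well-known leukocyte gene. In these libraries it had 4183 to 5364 counts per library beside the 7 to 17 counts of Ptprc. Its paralogue Bst1, a second ectoenzyme of the same activity, starts upstream on the same strand (43818885 to 43843986) with 24566 bases between the genes. Bst1 was at 6.78, 3.18 and 3.39 CPM in aged and 8.99, 8.78 and 3.26 CPM in young libraries, so that 1 aged library was high and 1 young library low (log2 fold change -0.66 ± 0.43, adjusted p = 0.783). Sarm1, an NAD glycohydrolase best known from axons, was near the detection limit at 0.183 ± 0.123 CPM in aged and 0.145 ± 0.151 CPM in young libraries (adjusted p = 0.946 by edgeR).

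**Figure D2:**
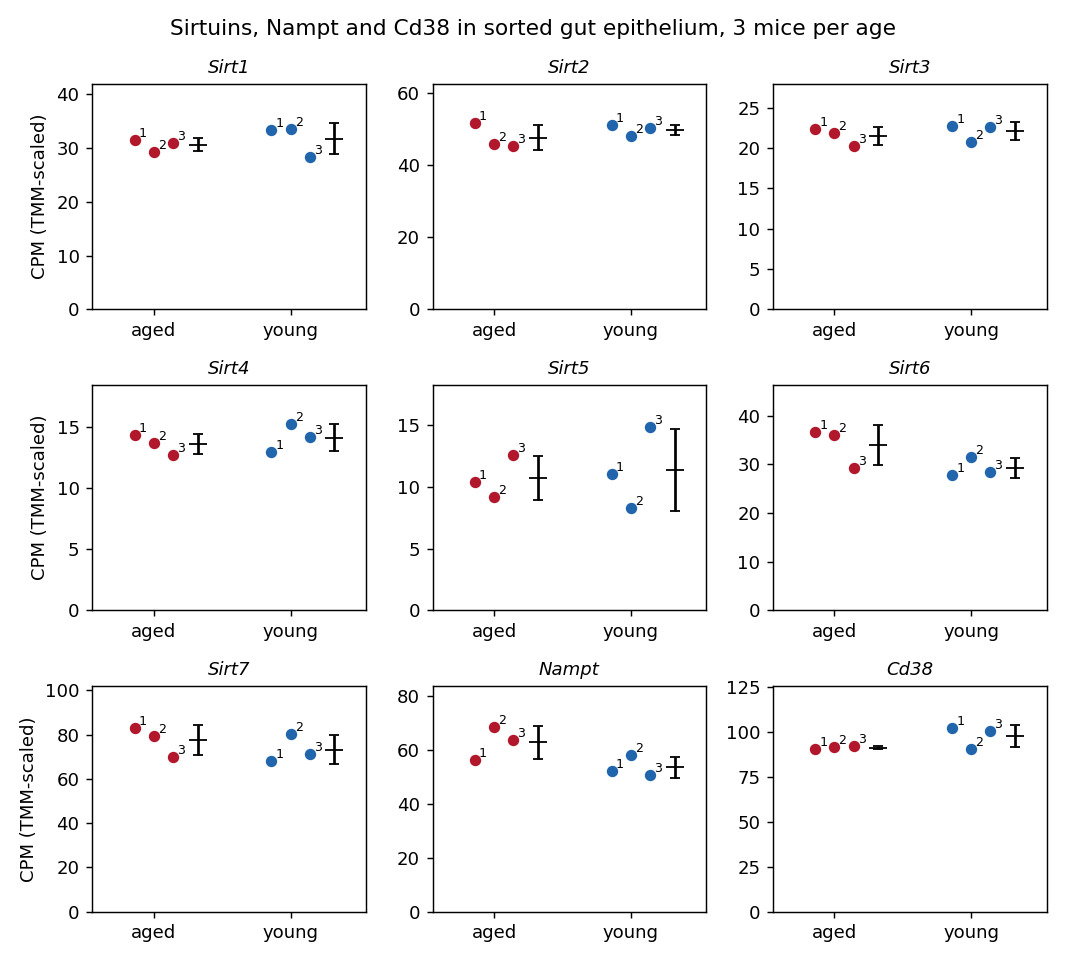
TMM-scaled CPM (y axis, from 0) of each of the 9 genes in the 3 aged and 3 young libraries, numbered by replicate, with the mean ± SD as bars. The groups overlap in every panel, and the Sirt5 values are the most scattered, from 8.30 to 14.9 CPM.

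Among the nuclear sirtuins, Sirt6 showed the largest difference, and it did not pass. Sirt6 (ENSMUSG00000034748, chromosome 10, 81621785 to 81627797), a chromatin deacetylase with roles in DNA repair and glycolysis, was at 36.7, 35.9 and 29.3 CPM in aged libraries, against 27.8, 31.5 and 28.4 CPM in young libraries. Aged replicates 1 and 2 stood above all young libraries, and aged replicate 3 fell among the young ones. Its log2 fold change was 0.21 ± 0.11 (SE, unadjusted p = 0.0755, edgeR adjusted p = 0.635), with a 95% interval of the fold from 0.981 to 1.37.

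Sirt1 (ENSMUSG00000020063, chromosome 10, 63319005 to 63381704), which deacetylates p53, FOXO factors and the coactivator Ppargc1a, was at 31.5, 29.2 and 31.0 CPM in aged and 33.4, 33.5 and 28.4 CPM in young libraries. The lowest and the highest value were both young, and the log2 fold change was -0.06 ± 0.09 (SE, edgeR adjusted p = 0.932; fold interval 0.833 to 1.11). Sirt7 (ENSMUSG00000025138, chromosome 11, 120618372 to 120625240), a nucleolar enzyme that acts in ribosomal RNA transcription, had 82.9, 79.2 and 69.9 CPM in aged and 67.8, 80.3 and 71.4 CPM in young libraries. Its values were mixed between the ages (log2 fold change 0.08 ± 0.09, edgeR adjusted p = 0.887; fold interval 0.914 to 1.22).

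Sirt2 (ENSMUSG00000015149, chromosome 7, 28766735 to 28788661), the mainly cytosolic member known as a tubulin deacetylase, was at 51.7, 45.8 and 45.2 CPM in aged and 50.9, 48.1 and 50.1 CPM in young libraries. Aged replicate 1 was above all young libraries and the other aged libraries below them. The log2 fold change was -0.06 ± 0.08 (SE, edgeR adjusted p = 0.895), and the fold interval ran from 0.844 to 1.08.

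The mitochondrial sirtuins split into a pair of even genes and 1 uneven gene. Sirt3 (ENSMUSG00000025486, chromosome 7, 140863666 to 140882309), the main mitochondrial deacetylase, stood at 22.4, 21.8 and 20.3 CPM in aged and 22.8, 20.8 and 22.7 CPM in young libraries. Sirt4 (ENSMUSG00000029524, chromosome 5, 115478010 to 115484725), which represses glutamate dehydrogenase, stood at 14.4, 13.7 and 12.7 CPM in aged and 13.0, 15.2 and 14.2 CPM in young libraries. Neither differed by age beyond the spread of the libraries, with log2 fold changes of -0.04 ± 0.09 for Sirt3 (edgeR adjusted p = 0.960; fold interval 0.845 to 1.12) and -0.06 ± 0.11 for Sirt4 (adjusted p = 0.945; 0.813 to 1.14).

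Sirt5 (ENSMUSG00000054021, chromosome 13, 43365496 to 43395203), which removes succinyl and malonyl groups, had 10.4, 9.17 and 12.6 CPM in aged and 11.1, 8.30 and 14.9 CPM in young libraries. The highest library was 1.80 times the lowest, against 1.12 to 1.35 times for the other 8 genes. Its log2 fold change was -0.08 ± 0.21 (SE, edgeR adjusted p = 0.963), and its fold interval, 0.678 to 1.31, was the widest of the 9. The SD of Sirt5 within the age groups was 0.34 on the log2 CPM scale, above that of 91.1% of the 1245 tested genes within 0.5 log2 units of its mean level. For Cd38, the member with the smallest SD, it was 0.067, above 22.7% of the 2138 genes near its level. Set against genes of like level Sirt3 was lower still, with an SD of 0.075, above 15.6% of 1924 genes. In both ages replicate 3 had the most Sirt5 and replicate 2 the least. The direction of the Sirt5 difference depended on single libraries, with a log2 fold change of 0.15 without young replicate 3 and 0.01 without aged replicate 2.

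The summed level of the 7 sirtuins was 250.1, 234.9 and 221.1 CPM in aged libraries, against 226.8, 237.7 and 230.2 CPM in young libraries. The aged libraries thus held both the highest and the lowest sum. To compare genes with one another, CPM were divided by the kilobases of merged exons. On that scale Cd38 was highest, at 23.5 ± 0.239 in aged and 25.1 ± 1.6 CPM per kilobase in young libraries (SD, n = 3 each), above 83.7% of the genes tested. Sirt7 followed at 15.0 ± 1.30 in aged and 14.2 ± 1.25 CPM per kilobase in young libraries, and Sirt5 was lowest at 1.76 ± 0.287 in aged and 1.87 ± 0.545, above 33% of the genes tested. The order was Cd38, Sirt7, Nampt, Sirt6, Sirt2, Sirt1, Sirt4, Sirt3 and Sirt5. The neighbours Sirt7 and Nampt, Nampt and Sirt6, Sirt6 and Sirt2, and Sirt1 and Sirt4 overlapped over the 6 libraries, while the other neighbours did not. The order depended on the length used: with the longest transcript, Sirt2 and Nampt changed places, as did Sirt1 and Sirt4, and the other genes kept theirs. The levels themselves moved by over 1.5 times for 4 genes: Sirt5 averaged 4.57 with the longest transcript and 1.82 CPM per kilobase with merged exons over the 6 libraries, Sirt2 23.0 and 9.66, Sirt3 6.80 and 3.65, and Sirt7 23.0 and 14.6. The nuclear Sirt1, Sirt6 and Sirt7 made up 61.6 ± 1.32% of the summed sirtuin level per kilobase in aged and 58.9 ± 2.32% in young libraries. The mitochondrial Sirt3, Sirt4 and Sirt5 made up 20.7 ± 0.877% in aged and 22.1 ± 1.45% in young libraries. Both shares rest on merged exons and would move with the longest transcript, for which they were not computed.

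**Figure D3:**
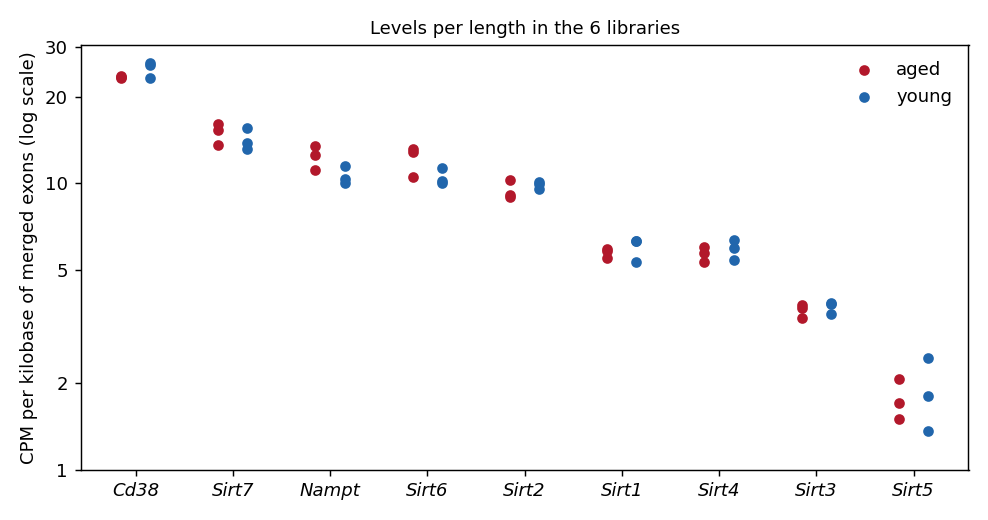
Level of each gene in CPM per kilobase of merged exons (y axis, log scale) in the 3 aged and 3 young libraries, in falling order of the mean over all 6. Cd38 lies above the other genes in every library and Sirt5 below them.

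Some counts are less certain than their depth implies, because exons of some members overlap those of other genes. The strand setting of the counting, which matters for genes on opposite strands, is not given in the sources used here. Sirt3 shares 418 exon bases with Ric8a and 342 with Psmd13, both on the opposite strand, or 7.0% and 5.7% of its merged exons. Sirt7 shares 124 exon bases with Mafg on its own strand, 2.4% of its exons, and 54 with the microRNA gene Mir6936, and Sirt2 and Sirt1 share 42 and 65 bases with genes on the other strand. Sirt4, Sirt5, Sirt6, Nampt and Cd38 share 0 exon bases with another annotated gene.

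The genes nearest to each member in their pattern over the 6 libraries were sought among 10000 other tested genes of at least 5 CPM. Likeness was the root mean square difference of log2 CPM after centring each gene. Cd38 lay nearest to Hp1bp3 (0.00964), and Sirt3 to Ndufa6 (0.0106), a subunit of respiratory complex I. Sirt7 lay nearest to Abt1 (0.0115), Sirt6 to Ext1 (0.0146), Sirt2 to Glmp (0.0200) and Sirt4 to Tusc2 (0.0229). Sirt1 lay nearest to Cln8 (0.0254), and Nampt to Tnfrsf1b (0.0284), a receptor of tumour necrosis factor. Sirt5 had the largest distance to its nearest gene, Ntn4, a secreted netrin, at 0.0555. This measure grows with a gene's own spread, which was also largest for Sirt5. Its root mean square difference from its own mean was 0.279, against 0.0888 for Sirt1. None of these 9 neighbours passed the test between ages (edgeR adjusted p from 0.356 for Tnfrsf1b to 0.957 for Tusc2). Among the members themselves Sirt2 and Sirt3 were nearest to each other (0.0464), and Sirt5 was at least 0.243 from every other.

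Naprt and Nadsyn1, the first and last enzymes of NAD synthesis from nicotinic acid, were expressed above Nampt. Of 9 salvage and synthesis genes listed, Nampt included, 7 were tested and 0 passed, with a median log2 fold change of 0.04, against 0.01 for all genes tested. Naprt was at 106 ± 8.30 CPM in aged and 120.4 ± 22.1 CPM in young libraries (log2 fold change -0.18 ± 0.13, edgeR adjusted p = 0.813). Nadsyn1 was at 95.3 ± 5.90 CPM in aged and 95.9 ± 11.3 CPM in young libraries (adjusted p = 0.993). Per kilobase, Naprt averaged 45.4 in aged and 51.4 in young libraries, Nadsyn1 28.8 in aged and 29.0 in young, and Nampt 12.4 in aged and 10.6 in young. The ranges of Naprt (40.5 to 57.7) and Nadsyn1 (25.1 to 31.6) over the 6 libraries lay above the highest Nampt value (13.5). These levels rest on merged exons, and for Naprt and Nadsyn1 they were not computed with the longest transcript. The route from tryptophan was only partly expressed. Of its 11 listed genes 4 were tested and 0 passed, and Qprt, the enzyme that feeds it into NAD, had 3 to 4 counts in aged and 2 to 15 counts in young libraries. Acmsd and Aadat had 0 counts in all libraries. Ido1, its interferon-induced first enzyme, was at 17.3, 14.6 and 5.99 CPM in aged and 5.96, 22.6 and 3.74 CPM in young libraries, so that libraries of the same age differed more than the ages did (edgeR adjusted p = 0.973). Ccbl1, a kynurenine aminotransferase also named Kyat1, was at 29.9 ± 1.43 CPM in aged and 33.0 ± 2.41 CPM in young libraries (adjusted p = 0.763). Kynu, the kynureninase gene, had 0 counts in each aged library and 10, 4 and 7 counts in the young libraries. It was too low for the edgeR filter. DESeq2 called it lower (adjusted p = 0.033), as did edgeR without a filter (adjusted p = 0.0144), on these 21 counts in all. A count of 0 in a library allows up to 3 counts, or 0.0507 to 0.0720 CPM, and such limits cover counting error only.

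Nadk2, the mitochondrial NAD kinase, which turns NAD into NADP, came closest to a call among the NAD enzymes. It was at 110.0, 107 and 119 CPM in aged libraries, against 156, 144 and 133 CPM in young libraries. Every aged library lay below every young one. The log2 fold change was -0.36 ± 0.08 (SE), a fold of 0.778 with a 95% interval of 0.686 to 0.882, and it did not pass (edgeR adjusted p = 0.0767). DESeq2 called it lower (adjusted p = 0.0138), and so did edgeR without a filter on low counts (adjusted p = 0.0182); over the 13 alternatives its adjusted p ran from 0.0138 to 0.309. The cytosolic kinase Nadk was even between the ages, at 228.9 ± 4.98 CPM in aged and 227.0 ± 1.85 CPM in young libraries (log2 fold change 0.01 ± 0.06, adjusted p = 0.980). Of the 4 genes of NAD phosphorylation and mitochondrial NAD transport tested, 0 passed.

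Of 10 genes of nicotinamide disposal and precursor handling, 7 were tested and 0 passed. Slc12a8, reported in mice as a transporter of nicotinamide mononucleotide in the small intestine, was at 128, 133 and 115 CPM in aged and 134, 149 and 179 CPM in young libraries. The groups did not overlap, though aged replicate 2 and young replicate 1 were nearly equal (log2 fold change -0.30 ± 0.11, edgeR unadjusted p = 0.0217, adjusted p = 0.356). Pnp, which releases nicotinamide from its riboside, stood at 104 ± 4.32 CPM in aged and 103 ± 4.05 CPM in young libraries (adjusted p = 0.979). Nnmt, which methylates nicotinamide for disposal, had 0 counts in all 6 libraries, as did Aox3. Enpp3, an ectoenzyme that splits nucleotides including NAD, was at 17.4, 13.0 and 11.8 CPM in aged and 20.6, 22.2 and 17.8 CPM in young libraries. Its groups did not overlap (log2 fold change -0.52 ± 0.16, edgeR adjusted p = 0.212), and it was called lower by DESeq2 (adjusted p = 0.0487) and without a filter (adjusted p = 0.0384).

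The PARP family, which also consumes NAD, held the only call among these lists, 1 of 16 tested genes. Of all genes tested 1.41% passed, and whether 1 of 16 differs from this share was not tested. Parp3, an enzyme of DNA break repair, rose to 45.8, 43.5 and 37.3 CPM in aged libraries, against 11.1, 14.7 and 12.3 CPM in young libraries (log2 fold change 1.73 ± 0.13, edgeR adjusted p = 0.000685), and it was called in all 13 alternatives. Parp9 (log2 fold change 0.40, edgeR adjusted p = 0.133) and Parp14 (0.56, adjusted p = 0.253) were called higher by DESeq2, Parp9 also without a filter and Parp14 also without young replicate 2.

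**Figure D4:**
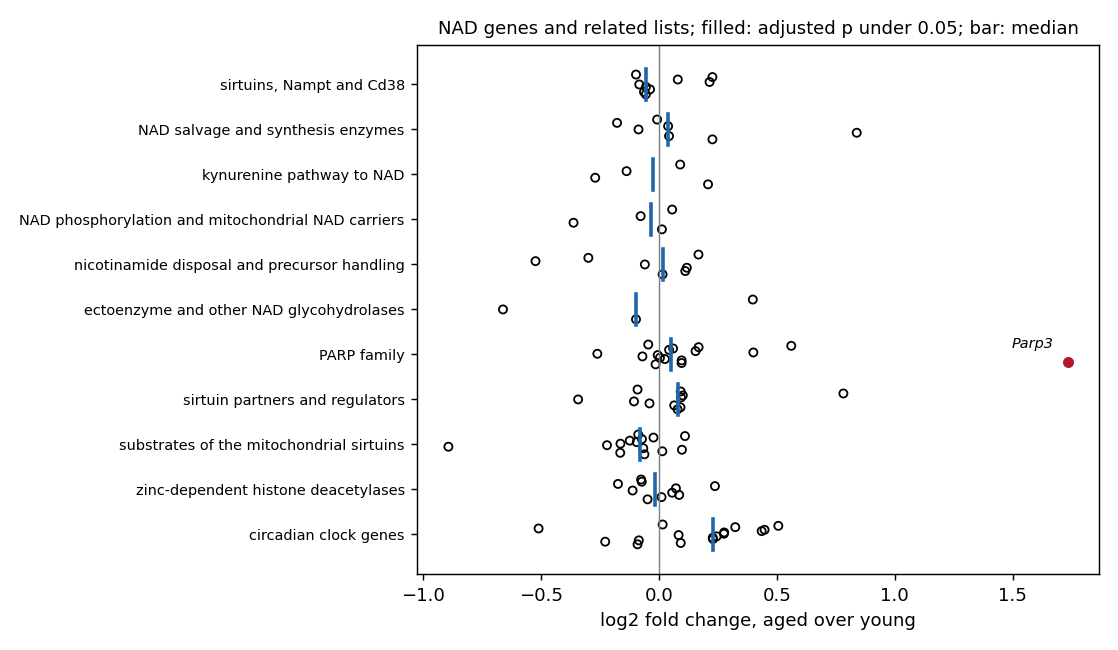
Log2 fold change of aged over young (x axis) for the 9 genes and for the tested genes of 10 related lists (y axis), with the median of each list as a bar and calls filled. Parp3 is the only filled point, and the medians run from -0.10 to 0.23.

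Partners, targets and the other deacetylase family gave no calls. Of 11 sirtuin partners and regulators, all tested, 0 passed. By the mean over all 6 libraries the most abundant were Trp53, the p53 gene (222.3 ± 9.06 CPM in aged and 208 ± 11.2 CPM in young libraries), and the acetyltransferase Ep300 (157 ± 11.1 CPM in aged and 147 ± 10.1 CPM in young libraries), with the Sirt1 inhibitor Ccar2 at about the same level as Ep300 (155 ± 2.19 CPM in aged and 147 ± 8.09 CPM in young libraries). Of 14 genes whose proteins are substrates of the mitochondrial sirtuins 0 passed, with 11 below 0 and a median log2 fold change of -0.08. Of all genes tested 51.8% were above 0, and whether the 11 of 14 differ from this was not tested. Cps1, the carbamoyl phosphate synthetase that Sirt5 acts on, was at 4133 ± 466 CPM in aged and 4629 ± 227 CPM in young libraries (edgeR adjusted p = 0.736). Pdha1, a pyruvate dehydrogenase subunit, was at 419 ± 33.8 CPM in aged and 456 ± 41.3 CPM in young libraries (adjusted p = 0.813). Of the zinc-dependent histone deacetylases, which work without NAD, 10 of 11 were tested and 0 passed. Their median log2 fold change was -0.02, and their range, -0.17 to 0.24, was close to that of the 9 genes, -0.10 to 0.23. The most abundant were Hdac3 (148 ± 8.55 CPM in aged and 139.7 ± 13.5 CPM in young libraries) and Hdac11 (100.6 ± 7.29 CPM in aged and 106 ± 11.4 CPM in young libraries).

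Nampt is a target of the clock factors in mice. Of 17 listed clock genes 16 were tested, 12 were above 0 and 0 passed (median log2 fold change 0.23). Of all genes tested 51.8% were above 0, and the 2 shares were not compared by a test. Bhlhe40 was at 134 ± 11.8 CPM in aged and 132 ± 24.2 CPM in young libraries (edgeR adjusted p = 0.989), and Clock at 84.3 ± 5.05 CPM in aged and 79.1 ± 9.68 CPM in young libraries (adjusted p = 0.879). Nr1d1 and Per2 were picked from the list for their spread among mice of the same age, which was not compared with that of other genes. Nr1d1, the gene of REV-ERB alpha, ranged from 36.2 to 163 CPM among aged and from 48.1 to 98.2 CPM among young libraries. Per2 ranged from 22.0 to 43.7 CPM among aged and from 14.3 to 58.4 CPM among young libraries. Nfil3, with a log2 fold change of 0.32 (edgeR adjusted p = 0.469), was called higher without aged replicate 3 (adjusted p = 0.0482). The part of these differences between libraries in the values of Nampt was not tested.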

How the data were processed

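The authors deposited raw counts per gene for 6 libraries: values are whole and the totals differ by library. Per the submitters' processing notes, the tools and builds include GRCm38, STAR, HISAT2 2.1.0 and featureCounts 1.6.4, listed without role or order. The annotation release is not given in the sources used here. Columns were matched to samples by the library code in the titles. Genes were filtered with filterByExpr (minimum count 10), scaled by TMM and tested with edgeR 4.0.16 (quasi-likelihood, robust, age as the only term, R 4.3.3). p-values were Benjamini-Hochberg adjusted over 14923 genes, with a threshold of 0.05. Standard errors are the log2 fold change over the square root of F. Lists were not tested as sets. The fit was tested on simulated data. Lengths and positions are from GENCODE M21, which held 45229 of the 46078 gene IDs. The alternatives were DESeq2 1.42.0, limma-voom 3.58.1, other scalings and filters, non-robust estimation and leaving out each library.

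The members and lists were chosen with earlier results of these data known. All members were named, with the called genes of each list or its 2 most abundant tested genes, Epcam, Ptprc and the nearest gene in pattern. The motifs, Kynu, Qprt, Enpp3, Parp9, Parp14, Nfil3, Nr1d1, Per2, Cry1, Cd68, Cd79b, Ccar2 and the genes at 0 counts were chosen after values were seen. Of 3 list symbols missing from the table, 2 were found under older names (Ccbl1, Ccbl2). A planned comparison of proteins was not made. Replicate numbers follow the order of the records and were not used as pairs; the labels do not say whether mice were collected in pairs. Libraries of an age differed by at least 27.15 in chi-square per gene, where sampling noise alone gives about 1.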

Additional observations from a re-analysis of the deposited data

How the results depend on the processing

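None of the 9 genes was called in any of the 13 alternatives, and 115 of 117 member values kept their direction. The exceptions were Sirt5 without aged replicate 2 (log2 fold change 0.01) and without young replicate 3 (0.15); its range over the fits without 1 library was -0.28 to 0.15. The lowest adjusted p of a member was 0.208, for Nampt without young replicate 2. Over all genes, 93 were called higher and 117 lower. These counts were 209 and 293 with DESeq2, 168 and 245 without a filter, and 67 lower with at least 1 CPM in 3 libraries. Leaving out 1 library gave 35 to 135 higher and 30 to 135 lower. Other scalings moved the median of all genes by under 0.1 on the log2 scale. No paired analysis was possible because the labels carry no replicate numbers and do not say whether mice were collected in pairs. With 3 mice per age, the differences seen in Nampt and Sirt6 were not called.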

Other observations

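Libraries of both ages showed the same order in several genes, chosen here after their values were seen. The share of all genes with a like order in both ages was not counted. Sirt5 was highest in replicate 3 and lowest in replicate 2 of each age. Ntn4 was picked above as the gene nearest to Sirt5 over these same libraries, so a like order was built into that choice. Its levels were 19.0, 17.1 and 24.5 CPM in aged and 22.0, 16.6 and 27.1 CPM in young libraries. Nr1d1 had the order of Sirt5 too, with 65.2, 36.2 and 163 CPM in aged and 72.5, 48.1 and 98.2 CPM in young libraries. Cry1 ran the other way, at 27.0, 30.2 and 11.9 CPM in aged and 15.5, 31.8 and 10.5 CPM in young libraries, and so did Per2, at 42.0, 43.7 and 22.0 CPM in aged and 18.6, 58.4 and 14.3 CPM in young libraries. The share of counts from mitochondrial genes was 2.88, 2.04 and 1.54% in aged and 3.69, 2.07 and 1.48% in young libraries, an order that differs from that of Sirt5. The replicate numbers follow the order of the records, and the labels give no time of collection.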
